A study of Mus musculus with 28 samples.

Results

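The genes described here encode subunits of mitochondrial respiratory complexes I to IV. They were chosen by symbol alone: every measured gene whose symbol starts with Ndufa, Ndufb, Ndufc, Ndufs, Ndufv, Uqcr, Cox4i, Cox5, Cox6, Cox7 or Cox8, without the Ndufaf assembly factors, together with Sdha, Sdhb, Sdhc and Sdhd. For each gene the brightest probe set, by its mean of 28 arrays, was used, and the rule gave 63 of the 17097 genes measured. They fall into 6 core and 27 accessory genes of complex I, the 4 genes of complex II, 7 of complex III, and 11 broadly expressed and 8 tissue-restricted isoforms of complex IV. Ndufa4 and its relative Ndufa4l2 are counted with complex IV, and Ndufs5-ps, a pseudogene symbol, fits the rule and is counted with the accessory genes of complex I. Subunits encoded by mitochondrial DNA are outside the rule.

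RNA was measured in CD45+ cells, the leukocytes, that were sorted from B16.F10 melanoma or MC38 colon adenocarcinoma tumours of mice and lysed without culture. In Nrp1L/LFoxp3Cre-YFP mice (deleted), Cre expressed from Foxp3, the gene of the regulatory T cell factor, acts on the L/L alleles of Nrp1, which encodes the coreceptor neuropilin-1. Foxp3Cre-YFP mice (control) carry the same Cre without those alleles, so both genotypes share the Cre and the reporter. Deletion is thus directed to Foxp3-expressing cells, while the arrays measured all sorted CD45+ cells together. Each genotype was sampled at 6 settings of tumour and day: MC38 at days 6, 12 and 18, and B16 at an early day, day 12 and day 18. The early B16 day is 8 in the titles and 6 in the source names. B16 day 18 and MC38 day 12 have 3 arrays per genotype and the other settings have 2. The labels do not say whether arrays of a group hold cells of separate mice. The p-values therefore measure the spread between samples, which may be technical, and precision is limited by the few arrays per group.

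The respiratory chain passes electrons from NADH, through complex I, and from succinate, through complex II, to ubiquinone, then through complex III and cytochrome c to complex IV, which reduces oxygen. Complexes I, III and IV pump protons, and ATP synthase uses the gradient. Core subunits carry the flavin, iron-sulphur and haem groups, accessory subunits surround them, and complex IV has isoform pairs in which one partner is broadly expressed and the other is limited to tissues such as muscle or testis. Leukocytes differ in their use of the chain with cell type and activation.

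The values are log2 RMA values. Their distributions fall into 3 sets of arrays, namely B16 day 18 with MC38 day 12, MC38 day 6 with day 18, and B16 early with day 12, and only groups within a set were compared directly. Arrays of a group correlated at 0.984 or more. Nrp1 was lower in every deleted array than in every control array at each of the 6 settings, at 7.75 to 9.43 in deleted and 8.93 to 10.24 in control cells over all settings (mean difference -0.84 ± 0.09 SE, adjusted p = 1.65e-07 in limma's fit); the sources used here do not place its probe set relative to the deleted part. Foxp3 lay between 2.65 and 3.44 on all arrays, below 3.64, the median of all values. Markers of leukocytes averaged 11.58 to 12.24 in deleted and 11.50 to 12.12 in control cells over all settings. Within each setting except MC38 day 12, where the groups overlapped, this average was higher on every deleted array than on every control array. At B16 day 18 it was 11.80 to 11.86 in deleted and 11.50 to 11.60 in control cells. Cell type markers differed with genotype. On the mean over the 6 settings all 8 T cell and all 5 NK cell markers measured were higher in deleted cells. All 9 macrophage, all 6 dendritic cell and all 8 melanocytic markers were lower. Not every setting showed this: melanocytic markers averaged 7.24 to 8.19 in deleted and 7.45 to 7.52 in control cells at the early B16 day. At MC38 day 6 the macrophage markers averaged 10.77 to 11.05 in deleted and 10.94 to 10.99 in control cells. In bulk samples, fewer cells of a type and less RNA per cell cannot be told apart, and the part of these shifts in the results below was not tested.

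The first question is whether subunit transcripts differed between deleted and control cells. Averaged over the 6 settings, 23 of the 63 subunit genes were lower in deleted cells and 0 were higher at an adjusted p under 0.05 (limma over all genes), against 17.9% of all genes lower and 11.0% higher. At an unadjusted p under 0.05, 28 were lower and 2 higher. With each array centred on its 75th percentile 20 were lower and 2 higher, and with only genes above the median of all values tested 24 were lower and 2 higher. Shares of all genes were not counted at an unadjusted p or under such alternatives, here or below. Those counts therefore describe the subunits alone and cannot be set against all genes. The falls were small. Apart from the dim Cox7a1 and Cox6b2, which fell more on the log2 scale, Cox7a2 fell by 4.85%, the least, and Uqcr11 fell by 18.1%, the most. The median difference was -0.06 log2 for the subunits and -0.03 for all genes. Since bright genes are called more often, the 54 subunits with a mean above 8 were also set beside the 3363 genes with such a mean. Of these subunits, 21 (38.9%) were lower and 0 higher, against 28.2% lower and 24.3% higher among the bright genes. All 23 lay below 0 in both tumours, 11 of them at all 6 settings and 12 at 5 of 6. The 23 were picked by the mean of these same settings, so their signs are largely set by that choice and are no separate support. Without the B16 day 18 arrays, 17 of the 23 were still called and 1 other subunit was higher.

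**Figure D1:**
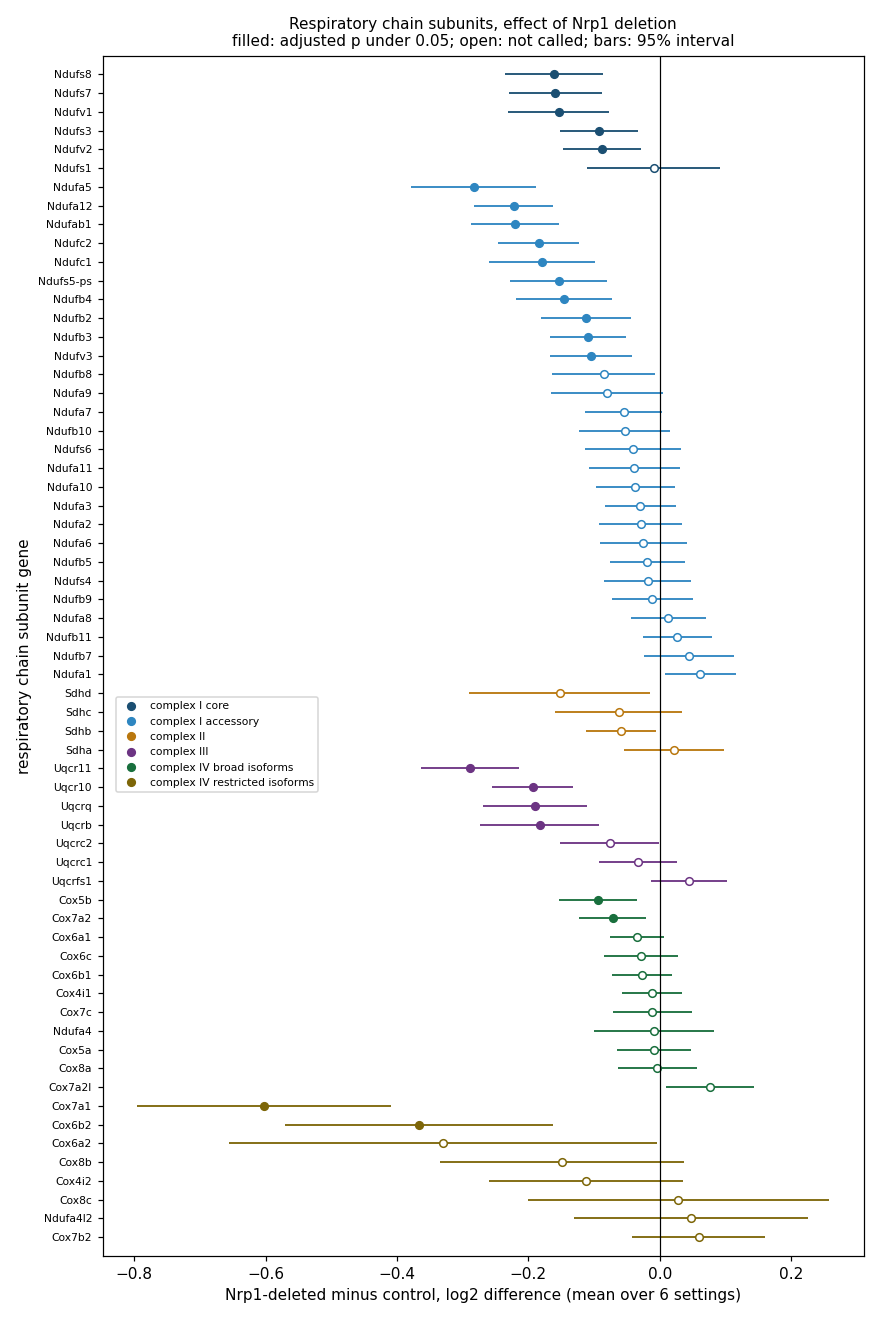
Difference between Nrp1-deleted and control CD45+ cells for each of the 63 subunit genes, on the log2 scale and averaged over 6 settings (x axis), with genes grouped by complex (y axis, colours). Filled points mark the 23 genes with an adjusted p under 0.05, all left of 0; open points were not called and bars are 95% intervals.

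In complex I, 5 of the 6 core genes measured were lower in deleted cells. By tumour, Ndufs7, Ndufs8 and Ndufv2 were called only in MC38. Ndufv1 was called only in B16, and not there without the B16 day 18 arrays, and Ndufs3 was called in neither. The difference between the tumours was called for none of them. Ndufs8 and Ndufs7, which carry iron-sulphur centres near the ubiquinone site, differed by -0.16 ± 0.04 and -0.16 ± 0.03 (SE; adjusted p = 0.00123 and 8.73e-04). Ndufv1, the subunit that binds NADH and the flavin, differed by -0.15 ± 0.04 (adjusted p = 0.00246) and lay below 0 at all 6 settings. Ndufs3, a subunit of the ubiquinone-binding part, differed by -0.09 ± 0.03 (adjusted p = 0.0167), and Ndufv2, an iron-sulphur subunit of the NADH-binding part, by -0.09 ± 0.03 (adjusted p = 0.0228). Ndufv2 was no longer called when any 1 of 4 arrays was left out. Ndufs1, the large iron-sulphur subunit, was not called, at -0.01 with a 95% interval of -0.11 to 0.09.

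Of the 27 accessory genes of complex I, 10 were lower. The 3 largest falls were in Ndufa5, Ndufa12 and Ndufab1. The product of Ndufa5 belongs to the ubiquinone-binding part, and that of Ndufa12 is a relative of the assembly factor Ndufaf2. Ndufab1 encodes the mitochondrial acyl carrier protein that also serves fatty acid synthesis. Ndufa5 differed by -0.28 ± 0.05 (adjusted p = 3.94e-05) and thus fell by 17.8%. In B16, its values were 9.48 and 9.19 in deleted versus 9.48 and 9.54 in control cells at the early day, and 9.25 and 9.17 versus 9.29 and 9.30 at day 12. At day 18 of B16, they were 8.37, 8.64 and 8.49 in deleted versus 9.05, 9.22 and 8.98 in control cells. In MC38, Ndufa5 had 9.02 and 9.19 in deleted versus 9.47 and 9.49 in control cells at day 6, and 9.35 and 9.28 versus 9.62 and 9.69 at day 18. The groups did not overlap at these 5 settings, by the third decimal at the early B16 day, and were farthest apart at B16 day 18. At MC38 day 12 they overlapped, with 8.44, 8.86 and 8.57 in deleted and 8.79, 8.79 and 8.73 in control cells.

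Ndufab1 showed the same separation at the same 5 settings. Its values at B16 day 12 were 10.46 and 10.49 in deleted versus 10.76 and 10.67 in control cells, and at MC38 day 6 they were 10.51 and 10.39 versus 10.78 and 10.83. At MC38 day 12, where the groups overlapped, they were 10.04, 10.19 and 9.97 in deleted and 10.16, 10.18 and 10.32 in control cells. The difference over the 6 settings was -0.22 ± 0.03 (adjusted p = 1.19e-05). Ndufa12 differed by -0.22 ± 0.03 (adjusted p = 2.68e-06), with deleted below control at every setting except MC38 day 12, where 10.40, 10.46 and 10.33 in deleted overlapped 10.48, 10.42 and 10.53 in control cells. For Ndufa12 the choice of probe set matters. A second bright probe set (mean 9.62) gave -0.28 ± 0.04, while a dimmer one (mean 5.58) gave 0.93 ± 0.11, and the mean of the 3 probe sets gave 0.15. Ndufc2 and Ndufc1, small accessory subunits of the membrane arm, differed by -0.18 ± 0.03 and -0.18 ± 0.04 (adjusted p = 4.39e-05 and 0.00104). Ndufs5-ps, Ndufb4, Ndufb2, Ndufb3 and Ndufv3 fell by 0.15 to 0.10. The other 17 accessory genes were not called and ranged from -0.09 for Ndufb8 to 0.06 for Ndufa1.

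None of the 4 complex II genes was called, and at an unadjusted p under 0.05 there were 2 lower and 0 higher. Sdha, the flavoprotein that oxidises succinate, differed by 0.02 (95% interval -0.05 to 0.10), and Sdhb, the iron-sulphur subunit, by -0.06 (-0.11 to -0.01; adjusted p = 0.0963). The membrane anchors Sdhc and Sdhd differed by -0.06 (-0.16 to 0.03) and -0.15 (-0.29 to -0.01; adjusted p = 0.0957). Sdhd lay below 0 at all 6 settings.

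In complex III the small subunits fell and the large ones were not called. Uqcr11, Uqcr10, Uqcrq and Uqcrb, small subunits that surround the catalytic core, made up the 4 falls among 7 genes. Uqcr11 differed by -0.29 ± 0.04 (adjusted p = 1.73e-06). At the early B16 day its values were 9.68 and 9.62 in deleted and 9.64 and 9.68 in control cells, which overlap. At B16 day 12 they were 9.42 and 9.58 in deleted versus 9.87 and 9.78 in control cells, and at day 18 they were 9.10, 9.08 and 9.04 versus 9.67, 9.56 and 9.61. In both later B16 settings every deleted array lay below every control array, with the wider gap at day 18. In MC38, Uqcr11 had 9.95 and 9.95 in deleted versus 10.26 and 10.20 in control cells at day 6, 9.30, 9.49 and 9.15 versus 9.52, 9.45 and 9.66 at day 12, and 9.91 and 9.91 versus 10.18 and 10.33 at day 18. The MC38 groups overlapped at day 12 alone. Uqcr10 differed by -0.19 ± 0.03, Uqcrq by -0.19 ± 0.04 and Uqcrb by -0.18 ± 0.04 (adjusted p = 2.12e-05, 4.33e-04 and 0.0024). With the mean over probe sets the Uqcrq difference was -0.11 and was not called (adjusted p = 0.205). Uqcr10 ran the other way at the early B16 day, where its deleted arrays lay above the control arrays. The core proteins Uqcrc1 and Uqcrc2 differed by -0.03 and -0.08, and Uqcrfs1, the Rieske iron-sulphur protein, by 0.04, with adjusted p of 0.46, 0.129 and 0.278.

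**Figure D2:**
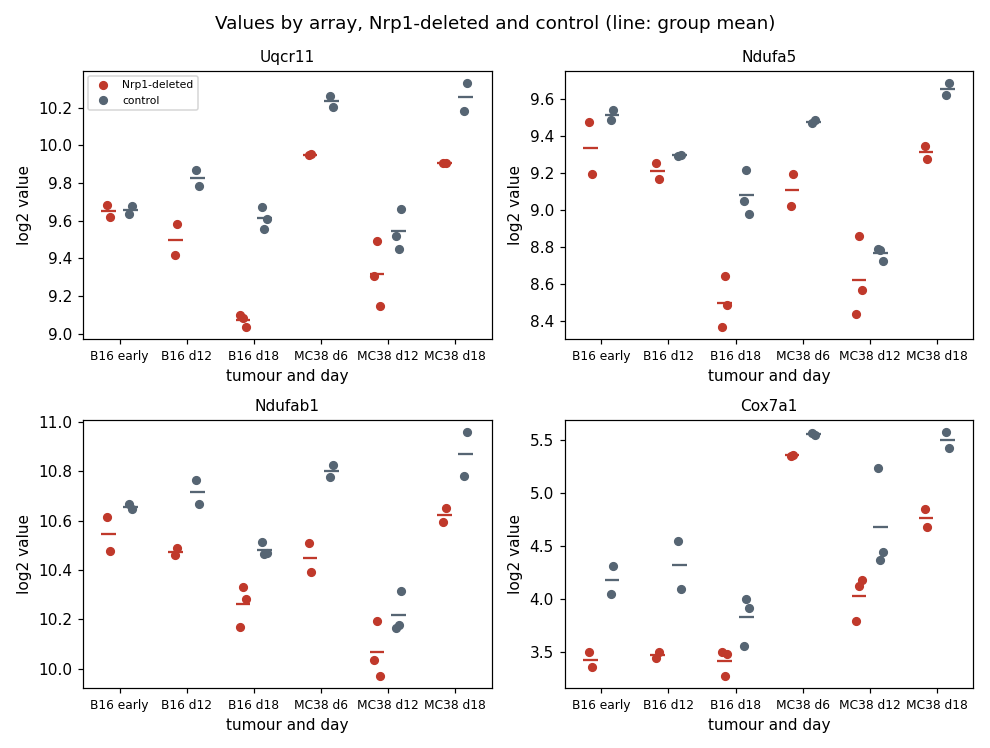
Log2 value (y axis) on each array for 4 subunit genes at the 6 settings of tumour and day (x axis), with Nrp1-deleted arrays left of control arrays and lines at group means. Deleted arrays of Ndufa5 and Ndufab1 lie below control arrays at every setting except MC38 day 12, and those of Cox7a1 at all 6.

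Promoter windows of 300 bases, from 250 before to 50 after the transcription start, were available for 49 of the 63 genes from RefSeq (GRCm38.p6). They were searched on both strands for CCGGAAG, the core of sites of ETS factors such as GABPA, for GCATGCGC, the core of NRF1 sites, and for AAGATGG, the core of YY1 sites. These factors are textbook regulators of respiratory genes. The first and the last of these strings can overlap at AAG, and GCATGCGC can overlap its own reverse complement. CCGGAAG was found for 9 of the 49 genes (18.4%), against 15.1% of the 13514 measured genes with a window. GCATGCGC was found for 7 (14.3%), against 4.65%, and AAGATGG for 8 (16.3%), against 7.61%. Among the 20 genes with a window that were lower in deleted cells, 3 held CCGGAAG, 1 held GCATGCGC and 2 held AAGATGG, against 6 each among the 29 that were not called. The windows of 3 genes that fell and hold a match, and of Cox7a1, the gene with the largest log2 difference, which holds none, are shown on the strand of the gene, with matches in capitals.
Uqcr11, chr10:80406772-80407071, minus strand: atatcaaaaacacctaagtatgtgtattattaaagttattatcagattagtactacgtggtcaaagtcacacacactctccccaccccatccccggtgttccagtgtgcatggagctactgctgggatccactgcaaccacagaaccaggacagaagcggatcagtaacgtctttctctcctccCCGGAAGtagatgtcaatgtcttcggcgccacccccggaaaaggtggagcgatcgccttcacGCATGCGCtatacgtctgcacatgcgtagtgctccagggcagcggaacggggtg
Ndufs7, chr10:80249199-80249498, plus strand: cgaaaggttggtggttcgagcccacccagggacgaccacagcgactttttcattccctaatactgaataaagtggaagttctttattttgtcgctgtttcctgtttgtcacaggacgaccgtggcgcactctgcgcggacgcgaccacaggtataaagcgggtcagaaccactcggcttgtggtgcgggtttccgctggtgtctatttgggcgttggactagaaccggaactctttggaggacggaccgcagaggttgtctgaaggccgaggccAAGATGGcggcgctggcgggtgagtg
Ndufs8, chr19:3912725-3913024, minus strand: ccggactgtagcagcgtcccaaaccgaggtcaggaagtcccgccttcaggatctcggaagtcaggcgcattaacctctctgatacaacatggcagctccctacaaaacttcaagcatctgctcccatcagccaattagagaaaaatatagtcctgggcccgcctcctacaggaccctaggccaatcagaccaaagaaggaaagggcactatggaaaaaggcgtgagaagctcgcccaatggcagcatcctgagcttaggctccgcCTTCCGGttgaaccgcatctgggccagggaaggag
Cox7a1, chr7:30183921-30184220, plus strand: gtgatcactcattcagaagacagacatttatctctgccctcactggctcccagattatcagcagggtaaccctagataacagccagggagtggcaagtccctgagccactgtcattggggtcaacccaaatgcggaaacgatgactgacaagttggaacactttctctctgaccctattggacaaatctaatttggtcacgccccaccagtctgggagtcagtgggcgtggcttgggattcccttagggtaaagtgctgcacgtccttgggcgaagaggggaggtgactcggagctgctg
In the Uqcr11 window the ETS core starts 66 bases and the NRF1 core 4 bases before the transcription start. In the Ndufs7 window the YY1 core starts 24 bases after it, and in the Ndufs8 window the ETS core, on the opposite strand, 15 bases after it. A match is a string in a sequence and does not show that a factor binds there.

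Among the 11 broadly expressed complex IV genes, 2 were lower. Cox5b, a zinc-binding subunit, differed by -0.09 ± 0.03 (adjusted p = 0.014). It was not called with the mean over probe sets (adjusted p = 0.302), without the variance trend (0.0656) or without the B16 day 18 arrays (0.0568). Cox7a2, the broad partner of Cox7a1, differed by -0.07 ± 0.02 (adjusted p = 0.0312), and leaving out any 1 of 10 arrays ended this call. The others lay between -0.03 for Cox6a1 and 0.08 for Cox7a2l, a relative of Cox7a2 that takes part in joining complexes III and IV. Cox4i1, the broad isoform of the largest nuclear-encoded subunit, differed by -0.01 (95% interval -0.06 to 0.03). Among the 8 restricted isoforms, 2 fell. Cox7a1, the heart and muscle isoform, differed by -0.60 ± 0.09 (adjusted p = 2.50e-05). Its values were 3.49 and 3.35 in deleted versus 4.05 and 4.31 in control cells at the early B16 day, 3.44 and 3.49 versus 4.55 and 4.09 at day 12, and 3.49, 3.27 and 3.47 versus 3.56, 4.0 and 3.91 at day 18. In MC38 they were 5.35 and 5.36 in deleted versus 5.57 and 5.55 in control cells at day 6, 3.79, 4.12 and 4.18 versus 5.23, 4.37 and 4.44 at day 12, and 4.85 and 4.68 versus 5.58 and 5.43 at day 18. No deleted array overlapped a control array at any of the 6 settings, and all deleted B16 values lay below the median of all values. The files do not say whether such low values are above background, so the size of this difference is uncertain. Markers of fibroblasts were low in B16 and lay in MC38 at 3.82 to 4.60 in deleted and 5.01 to 5.39 in control cells (mean over 8 genes, of which 3 were lower over the 6 settings), and their part in the Cox7a1 difference was not tested.

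Cox6b2, the testis isoform of the broad Cox6b1, differed by -0.37 ± 0.10 (adjusted p = 0.00609), with values of 3.15 to 3.92 in deleted and 3.53 to 4.45 in control cells, near the median of all values; Cox6b1 differed by -0.03. The muscle isoforms Cox6a2 and Cox8b differed by -0.33 and -0.15 and the testis isoforms Cox8c and Cox7b2 by 0.03 and 0.06, none of them called, while their broad partners Cox6a1 and Cox8a differed by -0.03 and 0.00. Cox4i2, an isoform known from lung and from hypoxia, and Ndufa4l2, known as a target of hypoxia-inducible factor, differed by -0.11 and 0.05 and were not called. Both lay below the median of all values on average, as did Cox7b2 and Cox8b.

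In B16 alone, 13 subunits were lower and 1 higher, against 12.3% and 10.3% of all genes, with a median of -0.07 for the subunits and 0.01 for all genes. In MC38 alone, 16 were lower and 0 higher, against 12.3% and 6.97%, with medians of -0.10 and -0.06; at an unadjusted p under 0.05, 2 were higher. With each array centred on its 75th percentile the MC38 split was 10 lower and 2 higher. Genes lower in both tumours made up 69.2% of the B16 falls and 56.2% of the MC38 falls. The matching shares among all genes were not counted, so these values are not read as a trait of the subunits. The 9 genes lower in both were Cox7a1, Ndufa12, Ndufa5, Ndufab1, Ndufc2, Uqcr10, Uqcr11, Uqcrb and Uqcrq. Among them, leaving out single arrays ended the call of Uqcrb in both tumours, of Uqcr10 and Ndufc2 in B16 and of Uqcrq in MC38. With the mean over probe sets, Ndufa12, Ndufab1, Uqcr10 and Uqcrq were not called in B16 (adjusted p = 0.229, 0.554, 0.143 and 0.51), and in MC38 Uqcrq was not called (adjusted p = 0.362) and Ndufa12 was higher, by 0.41. Cox7a1, Ndufa5, Ndufc2, Uqcr11 and Uqcrb were then still lower in both tumours. Without the B16 day 18 arrays, however, Ndufa5, Ndufab1, Ndufc2, Uqcr10, Uqcr11, Uqcrb and Uqcrq were not called in B16. Of the 9 genes, Cox7a1 and Ndufa12 kept their B16 call there. The 6 largest falls in B16 were those of Cox7a1 (-0.67 ± 0.13), Uqcr11 (-0.29 ± 0.05), Ndufa5 (-0.28 ± 0.06), Ndufc1 (-0.26 ± 0.06), Ndufa12 (-0.23 ± 0.04) and Uqcrq (-0.21 ± 0.05). The 1 rise in B16 was Cox7a2l, by 0.14 ± 0.05 (adjusted p = 0.0308), which was not called under cyclic loess normalization or when any 1 of 7 arrays was left out. In MC38 the 6 largest falls were those of Cox7a1 (-0.53 ± 0.13), Uqcr11 (-0.29 ± 0.05), Ndufa5 (-0.29 ± 0.06), Ndufs7 (-0.25 ± 0.05), Ndufs8 (-0.25 ± 0.05) and Ndufab1 (-0.25 ± 0.05).

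The B16 calls depended largely on the day 18 arrays. Without the 6 arrays of that day, 2 subunits were lower and 1 higher in B16, and 11 of the 14 calls were lost. That fit has fewer arrays, and the share of all genes called in it was not counted. Its median in B16 was -0.03 for the subunits and 0.02 for all genes, against -0.07 and 0.01 with all arrays. At B16 day 18 the melanocytic markers averaged 6.32 to 7.36 in deleted and 10.07 to 10.65 in control cells, and the macrophage markers 7.47 to 8.02 and 8.96 to 9.79. At B16 day 12 the melanocytic markers lay at 5.30 to 6.25 in deleted and 7.73 to 7.85 in control cells, and the macrophage markers at 6.02 to 6.6 and 9.73 to 9.82. The part of either list in the B16 falls was not tested. In MC38 the melanocytic markers lay at 3.65 to 3.93 in deleted and 3.74 to 3.90 in control cells, with 5 or 6 of the 8 below the median of all values in each group, and none of the 9 macrophage markers was called. At MC38 day 18, though, the macrophage markers averaged 11.09 to 11.22 in deleted and 11.58 to 11.64 in control cells. T cell markers averaged 8.26 to 8.90 and 6.88 to 7.22 at that day, and 8.11 to 8.83 and 7.38 to 7.72 at day 6. NK cell markers averaged 8.10 to 8.33 and 6.65 to 7.18 at day 18, and 8.08 to 8.61 and 6.93 to 7.10 at day 6. At MC38 day 12 the genotypes overlapped for each of these lists. In MC38, 6 of 7 cell cycle markers were lower in deleted cells, with a median of -0.50. The part of any of these lists in the MC38 falls was not tested.

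The difference of the genotype effects, B16 minus MC38, passed the threshold for 1 subunit, against 6.75% of all genes higher and 7.22% lower. Ndufb10, an accessory subunit of complex I, had an effect of 0.05 in B16 and -0.15 in MC38, a difference of 0.20 ± 0.07 (adjusted p = 0.0462), and leaving out any 1 of 22 of the 28 arrays ended the call, with 0 to 2 subunits then called. The effects come from different sets of arrays. With each array centred on its 75th percentile, 0 subunits were higher and 1 lower in this comparison.

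Single settings differ in their number of arrays, which bears on how many genes can be called. At B16 day 18, with 3 arrays per genotype, 17 subunits were lower (11.3% of all genes). When only the groups of a setting were fitted, 8 were lower there and 9 at MC38 day 18. The share of all genes was not counted in those fits, so the 8 and the 9 are not compared. The largest falls at B16 day 18 were Ndufa5 (-0.58 ± 0.10), Uqcr11 (-0.54 ± 0.08), Ndufc1 (-0.44 ± 0.08), Uqcrq (-0.39 ± 0.08), Uqcr10 (-0.32 ± 0.06) and Ndufa4 (-0.31 ± 0.09). At B16 day 12, 5 were lower and 2 higher (9.17% and 7.80% of all genes). The falls there were Cox7a1 (-0.85 ± 0.24), Ndufs5-ps (-0.39 ± 0.09), Uqcr11 (-0.33 ± 0.09), Ndufc2 (-0.29 ± 0.08) and Cox6a1 (-0.17 ± 0.05), and the rises were Cox7a2l (0.43 ± 0.08) and Ndufb11 (0.22 ± 0.07). Without control array 1 or deleted array 1 of that setting, 1 or 2 were called. At the early B16 day none was called (0.292% of all genes lower), with 4 lower and 1 higher at an unadjusted p under 0.05, and leaving out deleted array 1 gave 1 call. In MC38, 4 were lower at day 6 (1.99%), namely Ndufs8 (-0.36 ± 0.09), Ndufab1 (-0.35 ± 0.08), Ndufa12 (-0.32 ± 0.07) and Uqcr10 (-0.28 ± 0.08), and 0 without either control array or deleted array 2. At day 12, 1 was lower (4.87%), Cox7a1 (-0.65 ± 0.20), with 0 calls without control array 1, deleted array 1 or deleted array 3 and 2 without control array 2. At day 18, 5 were lower (2.24%), namely Uqcr11 (-0.35 ± 0.09), Uqcr10 (-0.33 ± 0.08), Ndufs7 (-0.33 ± 0.09), Ndufc2 (-0.29 ± 0.08) and Ndufa12 (-0.26 ± 0.07), and 0 or 1 without any of the 4 arrays.

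Counted by whether every deleted array lay below every control array, which uses no test, 18 of the 63 subunits were below at the early B16 day (22.9% of all genes), 22 at day 12 (24.1%) and 28 at day 18 (15.8%). In MC38 there were 39 at day 6 (25.9%), 11 at day 12 (17.1%) and 36 at day 18 (32.6%). Every deleted array lay above every control array for 14 subunits at the early B16 day (21.2% of all genes), 12 at day 12 (31.6%) and 0 at day 18 (13.6%), and in MC38 for 5 at day 6 (16.2%), 2 at day 12 (8.38%) and 6 at day 18 (19.7%). At the early B16 day the counts below and above were thus nearly balanced. The subunits' share below was farthest above that of all genes at MC38 day 6 and B16 day 18, and close to it at MC38 day 12. Averaged over the 59 subunits with a mean above the median of all values, arrays lay at 9.46 to 9.55 in deleted and 9.63 to 9.69 in control cells at B16 day 18, at 9.89 to 9.92 and 10.03 to 10.04 at MC38 day 6, and at 9.93 to 9.96 and 10.04 to 10.10 at MC38 day 18. At the early B16 day they lay at 10.01 to 10.02 and 10.03 to 10.04, and at MC38 day 12 they overlapped, at 9.41 to 9.54 in deleted and 9.52 to 9.56 in control cells.

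**Figure D3:**
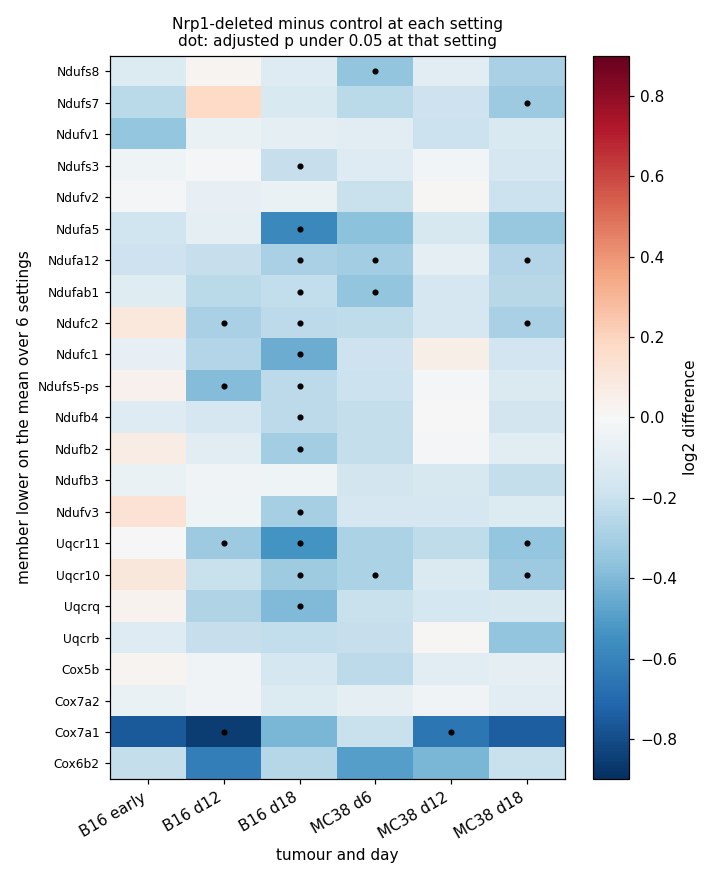
Difference between Nrp1-deleted and control cells at each setting of tumour and day (x axis) for the 23 subunit genes that were lower over the 6 settings (y axis), with colour giving the log2 difference and a dot an adjusted p under 0.05 at that setting. Dots are most frequent at B16 day 18 and absent at the early B16 day; Cox7a1 has the deepest colour.

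The second question is how the subunits differed between times, which could be asked within a set of arrays for day 18 against day 6 in MC38 and for day 12 against the early day in B16, over both genotypes. In MC38, 5 subunits were higher at day 18 and 2 lower, against 7.31% and 5.54% of all genes. The subunits were thus called about as often as all genes. The largest fall was in Ndufa4, first described in complex I and later assigned to complex IV. Its values at day 18 were 9.77 and 9.81 in deleted and 9.51 and 9.77 in control cells, and at day 6 they were 10.30 and 10.33 in deleted and 10.42 and 10.37 in control cells. All 4 arrays of day 18 lay below all 4 of day 6, a difference of -0.64 ± 0.08 (adjusted p = 1.29e-05), so that it fell by 35.7%. In deleted cells alone the difference was -0.52 ± 0.12 (adjusted p = 0.016) and in control cells alone -0.75 ± 0.12 (adjusted p = 1.58e-04). Ndufa4 also varied between tumours: in the set that holds both, it had 10.47 to 10.76 in deleted and 10.75 to 11.11 in control cells at B16 day 18, and 9.5 to 9.67 and 9.23 to 9.56 at MC38 day 12, where tumour and day differ together. Cox7a2l moved the other way in MC38. It had 10.27 and 10.16 in deleted and 10.36 and 10.23 in control cells at day 18, and 9.90 and 9.92 in deleted and 9.72 and 9.59 in control cells at day 6, a rise of 0.48 ± 0.06 (adjusted p = 9.67e-06) with no overlap between the days. Its probe set is of a kind whose probes can also bind related transcripts. The same limit holds for the probe sets used for Cox5b, Cox8a, Ndufa12, Ndufa2, Ndufa3, Ndufab1, Sdhd and Uqcrq. Some of the falls with genotype given above thus carry it too.

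Sdha rose as well, by 0.29 ± 0.07 (adjusted p = 0.00575, and 0.324 with the mean over its probe sets), with values of 9.86 to 9.97 at day 18 and 9.54 to 9.80 at day 6. The other MC38 rises were in Ndufa9, an accessory subunit of the matrix arm, by 0.25 ± 0.08, Ndufc2 by 0.18 ± 0.06 and Cox6c by 0.17 ± 0.05, and the second fall was in Ndufb7, an accessory subunit of the membrane arm, by 0.22 ± 0.06. The calls for Ndufa4, Cox7a2l and Sdha stood when any 1 array was left out. Those for Ndufa9, Ndufc2, Cox6c and Ndufb7 did not, and 3 or 4 subunits were then called without either control array or either deleted array of day 18, without control array 1 of day 6 or without deleted array 2 of day 6.

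In B16, 2 subunits were higher at day 12 than at the early day and 5 lower, against 13.1% and 10.1% of all genes, so fewer were called than in all genes. Ndufs7 rose by 0.28 ± 0.06 (adjusted p = 0.00202) and Ndufa6, an accessory subunit of the matrix arm, by 0.16 ± 0.06. The Ndufs7 rise lay mostly in deleted cells, with 9.36 and 9.30 at the early day and 9.67 and 9.96 at day 12. Control cells had 9.58 and 9.56 at the early day and 9.68 and 9.60 at day 12. The falls were in Ndufb11 (-0.25 ± 0.05; adjusted p = 3.33e-04), a membrane arm accessory subunit, Uqcrfs1 (-0.20 ± 0.05), Uqcr10 (-0.16 ± 0.05), Sdhb (-0.15 ± 0.05) and Cox7a2 (-0.14 ± 0.05). The count fell to 3 or 4 without control array 2 or deleted array 1 of day 12, either control array of the early day, or deleted array 1 of the early day, and the calls for Ndufs7, Ndufb11 and Uqcrfs1 stood. Under cyclic loess normalization the split was 5 higher and 2 lower, and with each array centred on its 75th percentile 1 higher and 8 lower, so that no common direction is given for this comparison. With the replicate number as a block, 0 subunits were called in it.

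**Figure D4:**
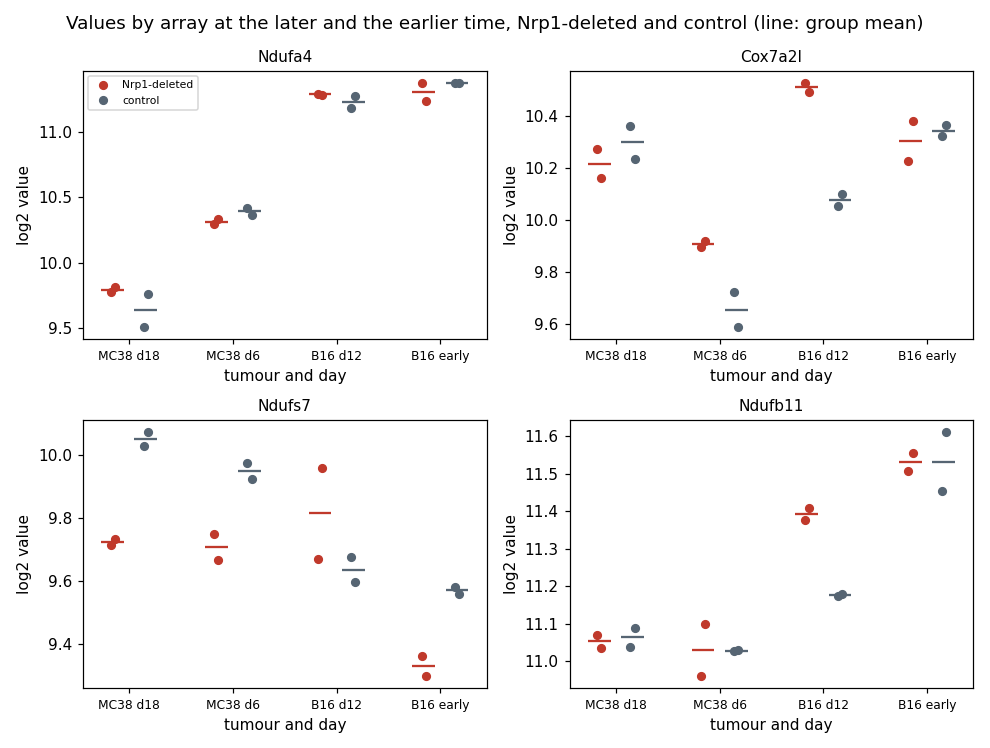
Log2 value (y axis) on each array for 4 subunit genes at the later and the earlier time of MC38 and of B16 (x axis), with Nrp1-deleted arrays left of control arrays and lines at group means. In MC38 all day 18 arrays of Ndufa4 lie below, and those of Cox7a2l above, the day 6 arrays; at B16 day 12 the deleted arrays of Cox7a2l and Ndufb11 lie above the control arrays.

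The genotype effect itself differed between B16 day 12 and the early day for 3 subunits, 2 with a higher and 1 with a lower effect at day 12, against 1.88% and 4.41% of all genes. For Cox7a2l the effect was 0.43 at day 12 and -0.04 at the early day, a difference of 0.47 ± 0.12 (adjusted p = 0.0152). Its values at day 12 were 10.53 and 10.49 in deleted versus 10.05 and 10.10 in control cells, and at the early day 10.23 and 10.38 versus 10.32 and 10.36. The groups lay apart at day 12 and overlapped at the early day. For Ndufs7 the effect was 0.18 at day 12, where 9.67 and 9.96 in deleted overlapped 9.68 and 9.60 in control cells, and -0.24 at the early day, with 9.36 and 9.30 in deleted versus 9.58 and 9.56 in control cells (difference 0.42 ± 0.13; adjusted p = 0.0475). For Ndufc2 the effect was -0.29 at day 12, with 10.20 and 10.26 in deleted versus 10.55 and 10.48 in control cells, and 0.09 at the early day, with 10.40 and 10.37 versus 10.31 and 10.27 (difference -0.38 ± 0.11; adjusted p = 0.0394). Leaving out any array but deleted array 2 of day 12 reduced the 3 calls to 1 or 0. In MC38 the genotype effect at day 18 minus that at day 6 was called for 0 subunits, with 1 higher and 1 lower at an unadjusted p under 0.05.

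Other genes of the same pathway were counted in lists, using the same mean of 6 settings as for the subunits. By that measure 17.9% of all genes were lower and 11.0% higher, and bright genes were called more often, as given above. Whether any list departed from these shares was not tested, so a count alone does not mark a fall of the pathway. Cytochrome c (Cycs) and the cytochrome c1 of complex III (Cyc1) both fell, by 0.11 ± 0.03 and 0.18 ± 0.04; without the B16 day 18 arrays Cycs was not called (adjusted p = 0.0537). Of 16 ATP synthase genes, 4 were lower and 0 higher, among them Atpif1, the inhibitor of the enzyme (-0.44 ± 0.05), and Atp5g1 and Atp5g2, which encode its ring subunit (-0.30 ± 0.03 and -0.09 ± 0.03). Under centring on the 75th percentile, and without the variance trend, 2 were lower, and Atp5g2 was not called (adjusted p = 0.0544 and 0.0652). Assembly factors of complex I were lower in 5 of 13 and higher in 0, led by Nubpl, which delivers iron-sulphur clusters (-0.46 ± 0.07), Ndufaf2 (-0.29 ± 0.05) and Ndufaf6 (-0.44 ± 0.09). Those of complexes II to IV were lower in 6 and higher in 3 of 23, with Sdhaf1 at -0.40 ± 0.06, Cox14 at -0.20 ± 0.03 and Uqcc2 at -0.25 ± 0.04. Of 15 enzymes of the tricarboxylic acid cycle and its entry, 6 were lower and 1 higher, with Idh2, the mitochondrial NADP-dependent isocitrate dehydrogenase, at -0.83 ± 0.08, Suclg2 at -0.41 ± 0.05 and Fh1, fumarase, at -0.23 ± 0.04.

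Mitochondrial ribosomal proteins, which translate the subunits encoded by mitochondrial DNA, were lower in 32 of 73 genes and higher in 0, with a median of -0.12 and with Mrpl27, Mrps10 and Mrpl23 at -0.28 ± 0.03, -0.39 ± 0.05 and -0.25 ± 0.03. Symbols of the cytosolic ribosome were lower in 4 and higher in 4 of 72, with a median of 0.01, and higher in 13 when arrays were centred on the 75th percentile. The 3 with the smallest adjusted p, Rps19bp1, Rps27l and Rpl7l1 (-0.31 ± 0.05, -0.25 ± 0.04 and -0.23 ± 0.06), are named for a binding partner or a relative of a ribosomal protein rather than for a standard subunit. Regulators of mitochondrial biogenesis were higher in 3 and lower in 2 of 12: Nrf1, the factor whose core string was searched above, rose by 0.35 ± 0.06, Tfb2m, a mitochondrial transcription factor, rose by 0.22 ± 0.05, and Polrmt, the mitochondrial RNA polymerase, fell by 0.20 ± 0.05. Targets of hypoxia-inducible factor were lower in 9 of 11 and higher in 0, with a median of -0.47 and with Car9, Bnip3 and Adm at -1.09 ± 0.10, -0.48 ± 0.06 and -0.73 ± 0.12. In B16 alone they were lower in 9 of 11 with a median of -0.88, and in MC38 alone in 1 of 11 with a median of -0.08.

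**Figure D5:**
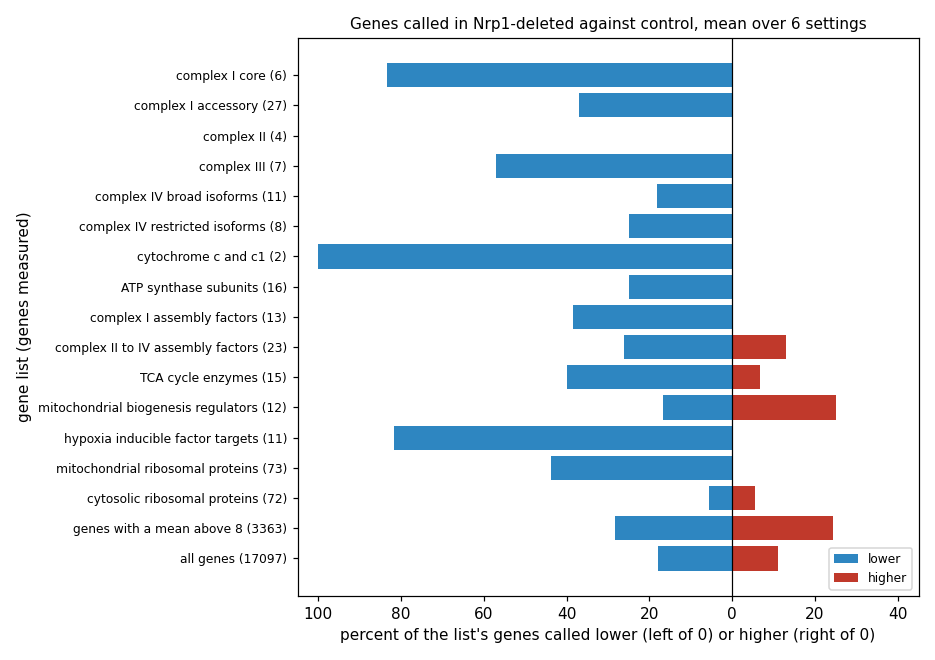
Percent of the genes of each list (x axis) that were lower (left of 0) or higher (right of 0) in Nrp1-deleted than in control cells over the 6 settings, with the number of genes measured beside the name (y axis). The complex I core has 5 of 6 genes lower and complex II has none; the last 2 rows give genes with a mean above 8 and all genes.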

How the data were processed

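RNA of sorted CD45+ cells was hybridised to Affymetrix arrays, 28 in 12 groups. The deposited log2 values are the authors' RMA values made with Partek 6.6, per the submitters' processing notes; order and settings of the steps are not given in the sources used here, and of 45141 probe sets 28898 name 1 gene in the platform annotation, 551 several and 15692 none; 1 probe set per gene, the one with the highest mean over all arrays, gave 17097 genes. Group means were fitted with limma 3.58.1 (R 4.3.3) over all arrays, with eBayes and a trend, and p-values were adjusted by Benjamini-Hochberg over all genes, with a threshold of 0.05. Differences are deleted minus control, B16 minus MC38 or later minus earlier, and the mean over 6 settings weights the settings equally. The fit was tested on simulated data. Quantile profiles of arrays differed by a root mean square of at most 0.0909 within a set and at least 0.118 between sets. Named genes are the 6 largest rises and falls past the threshold in a comparison, the genes of complex II, the nuclear core genes of complex I, the restricted isoforms with their partners, and for other lists the 3 genes with the smallest adjusted p; a few more were named for contrast after their values were seen. The members, lists and motifs were chosen with earlier results of these data known. Alternatives were the mean over probe sets, a filter on dim genes, cyclic loess, centring on the 75th percentile, no variance trend, a robust trend, array weights, only the groups compared, a replicate block and leaving out each array; leaving out the B16 day 18 arrays was added after seeing the data.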

Additional observations from a re-analysis of the deposited data

Results flagged for a closer look

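These 4 results were looked at again because the genotype effect differed between tumours or between times by the test of the difference itself. For Ndufb10 the effect of Nrp1 deletion, B16 minus MC38, was 0.20 log2. For Cox7a2l, Ndufc2 and Ndufs7 the effect at B16 day 12 minus that at the early day was 0.47, -0.38 and 0.42. The Ndufb10 call was lost in 27 of 37 alternatives and the Ndufs7, Ndufc2 and Cox7a2l calls in 11, 10 and 5 of 17.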

How the results depend on the processing

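Averaged over the 6 settings, 18 to 26 subunits were called in every alternative, 21 to 25 when single arrays were left out and 20 with the replicate number as a block. The 17 falls without the B16 day 18 arrays all belonged to the 23, and Cox5b, Cox7a2, Ndufb2, Ndufc1, Ndufs3 and Ndufv3 were not called there. Of the 23, Cox5b and Uqcrq were lost with the mean over probe sets, Cox7a2, Ndufv2 and Ndufv3 under centring, Cox5b, Cox7a2 and Ndufv2 without the variance trend, and Cox7a2, Ndufs3 and Ndufv2 with the block. In B16, 14 were called, 10 to 15 without single arrays, 8 with the mean over probe sets and 3 without the B16 day 18 arrays; in MC38, 16 were called and 11 to 19 without single arrays. For B16 minus MC38 (1 call) the count was 2 with the mean over probe sets, 4 among genes above the median of all values, 0 with cyclic loess, 0 without the variance trend, 0 with the replicate block and 0 to 2 without single arrays. At MC38 day 6 (4 calls) the same alternatives gave 0, 4, 2, 0, 0 and 0 to 4, with 1 under centring on the 75th percentile, 0 with array weights and 0 with only the groups compared. At MC38 day 12 (1) there were 2 with the mean over probe sets, 2 above the median, 0 with loess, 0 with centring, 0 with the block and 0 to 2 without single arrays. At MC38 day 18 (5) there were 3 with the mean over probe sets, 9 above the median, 1 without the trend, 14 with array weights, 9 with only the groups compared, 1 with the block and 0 to 1 without single arrays. At the early B16 day (0) there was 1 with array weights and 0 to 1 without single arrays. At B16 day 12 (7) there were 11 above the median, 12 with array weights, 3 with the block and 1 to 6 without single arrays. At B16 day 18 (17) there were 11 without the trend, 8 with only the groups compared and 12 to 17 without single arrays. Between the MC38 days (7) there were 3 without the trend, 3 with the block and 3 to 7 without single arrays. Between the B16 days (7) there were 11 above the median, 3 without the trend, 11 with array weights, 0 with the block and 3 to 6 without single arrays. For the genotype effect between the B16 days (3) there were 0 without the trend, 1 with the block, 0 to 2 without single arrays, and 2 higher and 2 lower under loess and under centring. For that between the MC38 days (0) no array left out gave a call. The mean over probe sets turned the sign of Ndufa12 to 0.15 over the 6 settings, 0.41 in MC38, 0.014 at B16 day 18, 0.17 at MC38 day 6 and 0.30 at MC38 day 18, through its dimmest probe set, and that of Sdha, which was not called, to -0.0078. Cox8c, not called, was -0.070 without the B16 day 18 arrays and -0.045 to 0.10 without single arrays, and Ndufa4l2, not called, -0.026 to 0.12. Of 962 values of genes in other lists under the alternatives, 958 stayed on their side of the threshold, 4 fell short of it and 0 changed sign. These values belong to the 26 genes named from those lists, which were picked for the smallest adjusted p of each list. They therefore do not show how stable the lists are. Why counts changed was not tested. No label states a shared origin of same-numbered arrays of the 2 genotypes, and their deviations from group means correlated between -0.276 and 0.196, so the block is no paired analysis. Where an array left out leaves a group of 1, its spread is taken from the other groups. Of 63 subunits, 59 had a mean above the median of all values; dimmer values limit the rest.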
